A study of Mus musculus with 10 samples.

Results

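The S100 proteins and the annexins are families of calcium-binding proteins that act together in many cells. All genes of both families were taken from the expression tables of kidney cortex by symbol: S100a followed by a number, S100b, S100g, S100pbp and Anxa followed by a number, leaving out S100a8 and S100a9. The rule took 23 of the 21792 genes listed: 11 S100 genes, 11 annexin genes and S100pbp, which encodes a binding partner of an S100 protein and is not itself an S100 gene. Anxa10, S100a2 and S100a5 are annotated in the mouse but were not listed. The tables came from RNA sequencing of kidney cortex of 10 wild-type (WT) mice, 1 library from each mouse, and their values are in FPKM, a fragment count scaled to transcript length and library depth. Aristolochic acid nephropathy (AAN) was induced in 6 mice by a single intraperitoneal injection of aristolochic acid, a plant toxin taken up by the proximal tubule, at 5 mg/kg in PBS. The other 4 were sham mice, which received PBS alone, and all 10 were killed at day 28. By the methods of the study, the mice of this model were male C57BL/6 mice aged 8 weeks, and controls were littermates. The depth, recovered from the low values of genes with 1 transcript, ran from about 15849000 fragments in B634 to 17514000 fragments in B607 in the sham mice and from about 13390000 fragments in B639 to 16472000 fragments in A483 in the AAN mice.

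An S100 protein is a small dimer with EF-hand calcium sites, and when it binds calcium it exposes a surface that docks onto other proteins. An annexin binds membranes rich in acidic phospholipids in the presence of calcium through repeats of a core domain, and its free amino terminus is the docking site for S100 partners. The known pairs are annexin A2 with S100A10, annexin A1 with S100A11 and annexin A11 with S100A6, and such pairs bridge membranes, help to reseal torn plasma membranes and, for annexin A2 with S100A10, hold plasminogen and its activator at the cell surface. In the kidney, S100G is the calcium carrier calbindin-D9k of the distal nephron, while several other members are common to leukocytes, fibroblasts and epithelia.

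Most members were higher in AAN. Averaged over the 10 mice, 22 of the 23 genes reached 0.1 FPKM, and these were tested with limma on log2(FPKM + 0.1). With a call set at a Benjamini-Hochberg adjusted p of at most 0.05 and a change of at least 2-fold, 16 of the 22 were higher in AAN and 1, Anxa13, was lower, while 5 (Anxa7, Anxa11, S100a1, S100b and S100g) were not called. By family, 7 of 10 S100 genes and 8 of 11 annexins were called higher. Anxa8 was listed at 0 in all sham mice and passed the filter only through the AAN mice, so it had to differ, and 15 of the 16 do not rest on that. Among all 17129 genes tested, 35.8% were called higher and 3.43% lower. Of the 6126 called higher over all genes, 1524 likewise averaged under 0.1 FPKM in sham mice. The levels of the groups did not overlap for 15 of the 22, Anxa8 among them, against 43.6% of all genes. The median log2 fold change of the 22 was 1.64, against 0.75 over all genes, and 82.3% of all genes tested lay above 0. With the mice scaled by the median of ratios, which brought the median of all genes to 0.05, 11 of the 22 were called higher and 2 lower (Anxa13 and S100g), against 18.8% and 10.7% of all genes, and the median of the 22 was 0.89. Quantile normalization gave 11 higher and 1 lower (14.4% and 12.1% of all genes), and the median of ratios taken within classes of transcript length gave 12 and 1 (19.1% and 9.67%). As these are bulk samples, a change in the number of cells of a type and a change in RNA per cell cannot be told apart, whether up or down.

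**Figure D1:**
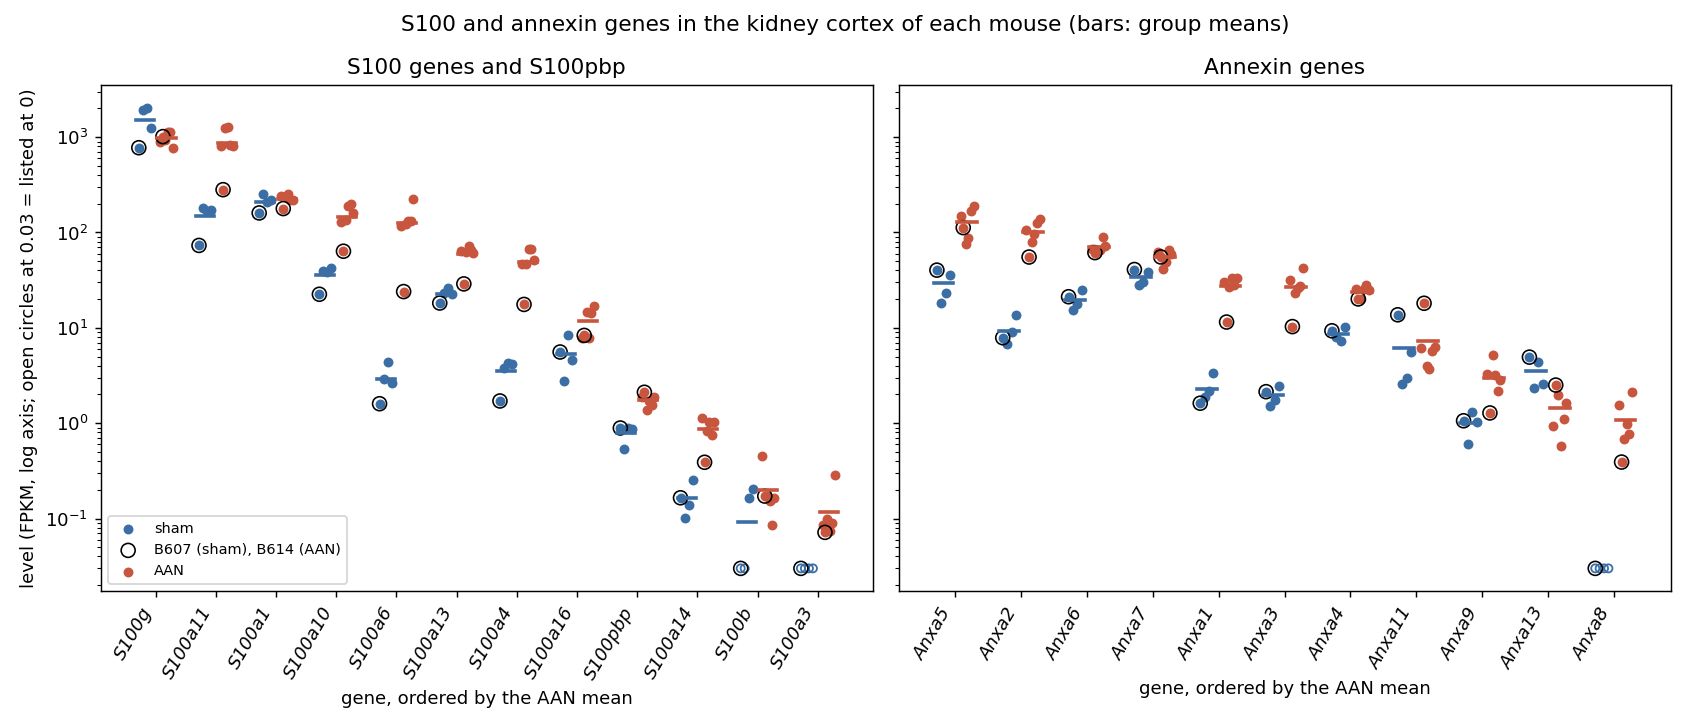
Level of each of the 23 genes in each mouse, in FPKM on a log axis, with sham mice in blue, AAN mice in red, bars at the group means and black circles around sham mouse B607 and AAN mouse B614, and open circles at the bottom are values listed at 0. S100a6, S100a4, Anxa1, Anxa2 and Anxa3 lie furthest apart among genes above 0 in both groups, whereas S100a1 stays between 160.3 and 254.8 FPKM in all 10 mice.

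A pair of libraries stood apart from the rest of their groups, by an amount that varied with transcript length. Among genes whose longest annotated transcript is over 500 and up to 750 bases, sham mouse B607 lay at a median of -0.33 (log2) from the median mouse of its group and AAN mouse B614 at -0.45. Among genes over 5000 bases they lay at 0.52 and 0.15. Other libraries deviated too, as sham mouse B634 lay at -0.30 in that class and AAN mouse B630 at -0.23, further from its group than B614. AAN mouse B642 lay at 0.36 among genes of at most 500 bases. In the shortest class, of at most 500 bases, the medians were 0.0 and -0.06 over 259 genes, although S100a4, with a longest transcript of 498 bases, was lower by 1.20 in B607 and by 1.64 in B614 than in the other mice of the group, and S100g, at 480 bases, was lower by 1.14 in B607 but differed by 0.08 in B614. The families differ in length, as the tested S100 genes have short transcripts (median of the longest transcript 700 bases, from 480 to 1683) and the annexins longer ones (median 1880 bases, from 1201 to 2904). The median S100 gene was lower by 0.9 (log2) in B607 than in the other sham mice and lower by 1.14 in B614 than in the other AAN mice. The median annexin differed by 0.16 and -0.30 in the same comparisons, but Anxa3 (-1.51), Anxa1 (-1.39), Anxa8 (-1.31), Anxa9 (-1.26) and Anxa2 (-0.96) also lay low in B614, whereas the 1241 genes of the length class that holds the first 4 of these had a median of -0.24 there. The part that transcript length has in these deviations was not tested. B614 was the lowest AAN mouse for 7 of 10 S100 genes and 6 of 11 annexins, and B607 the lowest sham mouse for 7 of 10 S100 genes and 1 of 11 annexins, ties at 0 not counted. Without both mice the count was again 16 higher and 1 lower of 22, against 39.8% and 3.67% of all genes.

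**Figure D2:**
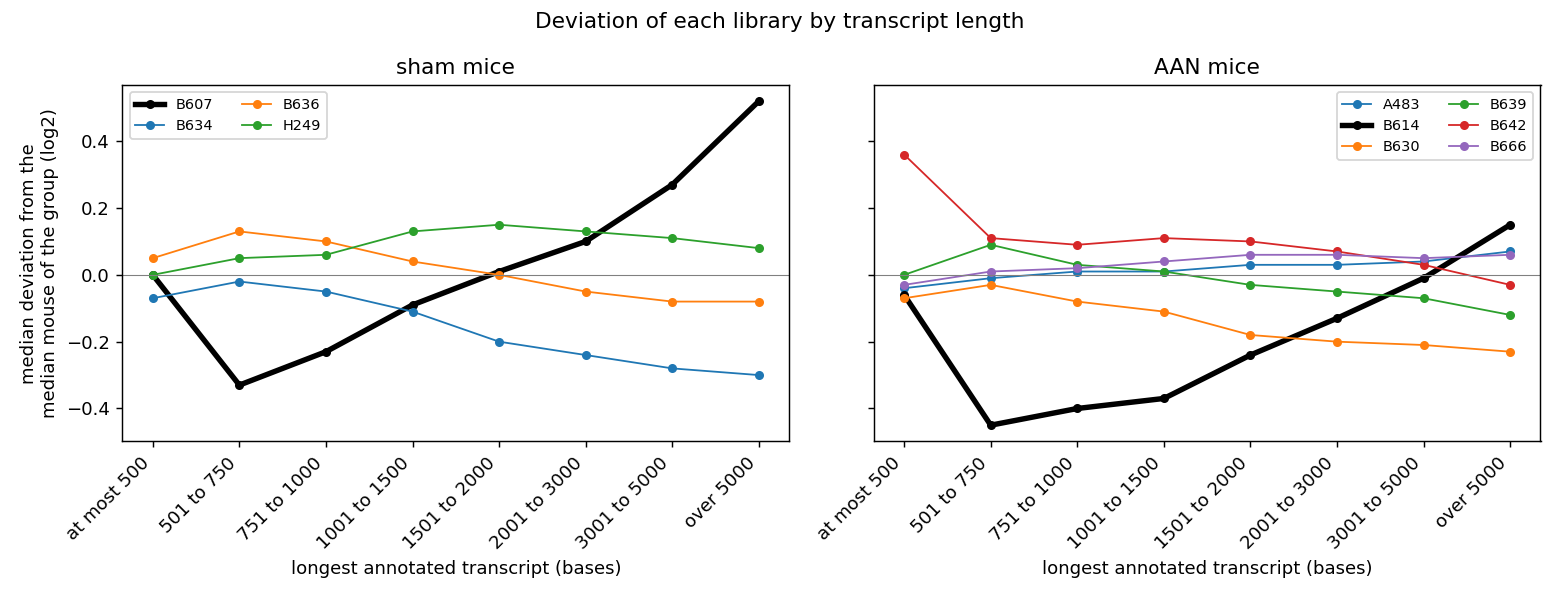
Median deviation (log2) of each library from the median mouse of its own group, by class of the longest annotated transcript in bases, over genes of at least 1 FPKM, with sham mice on the left and AAN mice on the right. B607 goes from -0.33 to 0.52 and B614 from -0.45 to 0.15 between the class over 500 and up to 750 bases and that over 5000, with 0.0 and -0.06 in the class of at most 500, and both are drawn in bold black.

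Within the S100 genes, the largest changes were those of S100a6 and S100a4, which lie close together on mouse chromosome 3. S100a6 lies on the plus strand at chr3:90612882-90624181 and S100a4 at chr3:90603771-90606045 (GRCm38, GENCODE M21), and both are protein-coding. S100a6 encodes calcyclin, a partner of annexins that is abundant in fibroblasts and epithelia under growth stimulation. Its levels in the sham mice were 1.6 FPKM in B607, 2.94 in B634, 4.41 in B636 and 2.61 in H249. In the 6 AAN mice they ran from 24.0 through a median of 126.4 to 225.9 FPKM. The groups were far apart, and the lowest AAN mouse was B614, with the other 5 at 118.3 FPKM or more. The sham mean was 2.89 ± 1.16 FPKM (SD, n = 4) and the AAN mean 125.6 ± 64.0 FPKM (SD, n = 6), a rise of 5.22 on the log2 scale (SE 0.51, limma adjusted p = 4.85e-06) that exceeded that of 99.5% of all genes tested. It was 4.47 after scaling by the median of ratios. In order of mean level S100a6 was gene 15 of the 23 in sham mice and gene 6 in AAN mice.

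S100a4 encodes a regulator of non-muscle myosin that is also known as fibroblast-specific protein and is found in leukocytes as well. It was at 1.71 FPKM in sham mouse B607, 3.78 in B634, 4.30 in B636 and 4.15 in H249. Among the AAN mice the levels ran from 17.6 through a median of 48.8 to 67.4 FPKM. Again B607 and B614 were the lowest of their groups, and the groups did not overlap. The log2 fold change was 3.75 (SE 0.38, limma adjusted p = 5.91e-06), and without B607 and B614 it was 3.72 with an SE of 0.17.

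The 150 bases before the RefSeq start site of S100a4 and S100a6 are printed here, because these genes had the largest changes of the S100 family. Those of S100a11 and Anxa2 are shown with them as members that hold a match to the AP-1 motif. The sequences are from RefSeq on GRCm38.p6, all on the plus strand, at chr3:90603620-90603769 for S100a4, chr3:90612732-90612881 for S100a6, chr3:93520338-93520487 for S100a11 and chr9:69453470-69453619 for Anxa2. Capitals mark matches to the AP-1 motif TGANTCA, which reads the same on both strands, or to the TATA box, spelled TATAAA.
S100a4: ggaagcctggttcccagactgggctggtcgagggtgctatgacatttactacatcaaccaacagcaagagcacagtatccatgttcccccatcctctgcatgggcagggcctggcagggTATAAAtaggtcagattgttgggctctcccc
S100a6: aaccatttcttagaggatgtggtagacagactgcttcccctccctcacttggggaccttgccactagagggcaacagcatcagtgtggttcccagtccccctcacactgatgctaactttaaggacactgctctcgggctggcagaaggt
S100a11: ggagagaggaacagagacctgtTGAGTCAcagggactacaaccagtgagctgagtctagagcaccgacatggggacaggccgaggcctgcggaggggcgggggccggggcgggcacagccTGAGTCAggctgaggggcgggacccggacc
Anxa2: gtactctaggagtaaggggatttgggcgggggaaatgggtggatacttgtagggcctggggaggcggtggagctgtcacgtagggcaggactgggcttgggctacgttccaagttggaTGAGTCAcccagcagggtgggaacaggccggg

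The S100a4 stretch holds a TATA box close to the start site and that of S100a6 holds neither motif, while S100a11 has a pair of AP-1 matches and Anxa2 a single one. Windows of 300 bases around the start were searched on both strands for 32851 promoters, and 18 of the 23 members had 26 of these, from 1 to 4 each. TGANTCA was found in 7.81% of all promoters and in 3 of the 26 of members, or 11.5% (Anxa2, S100a11 and S100a16). TATAAA was found in 13.6% of all promoters and in 5 of the 26, or 19.2% (Anxa1, Anxa2, S100a3, S100a4 and S100g). The windows and the printed stretches were not always placed from the same start site. The Anxa2 window, chr9:69453433-69453732, runs past the printed stretch, which itself holds no TATAAA. TTCNNNGAA, a STAT motif, was found in 8.3% of all promoters and in no window of a member, which says only that these letters are not there.

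S100a11 was the most abundant of the S100 genes that rose. It encodes the partner of annexin A1, a protein of keratinocytes and other epithelia also called calgizzarin. It was at 73.2 FPKM in sham mouse B607 and at 181.1, 169.3 and 173.4 FPKM in B634, B636 and H249. Levels in AAN went from 281.3 through a median of 822.1 to 1291 FPKM. Both B607 and B614 were far below the rest of their groups, yet the groups did not overlap. The sham mean was 149.3 ± 50.9 FPKM (SD, n = 4) and the AAN mean 877.0 ± 367.7 FPKM (SD, n = 6), a rise of 2.49 on the log2 scale (SE 0.41, limma adjusted p = 0.000298). Without B607 and B614 the change was 2.48 with an SE of 0.20.

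S100a10 encodes the light chain of the annexin A2 tetramer, an S100 protein whose calcium sites no longer bind calcium. In the sham mice it was at 22.5 FPKM in B607, 39.3 in B634, 38.2 in B636 and 42.5 in H249. Over the 6 AAN mice it ran from 63.6 through a median of 147.7 to 199.4 FPKM, with B614 at the bottom and no overlap with the sham mice. On the log2 scale the change was 1.99 (SE 0.31, limma adjusted p = 0.000198) and 1.22 by the median of ratios.

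S100a13 encodes a protein that takes part in the release of fibroblast growth factor 1 from cells. Its sham levels were 18.2, 23.4, 26.4 and 22.8 FPKM in B607, B634, B636 and H249. The AAN mice ran from 28.9 through a median of 63.0 to 72.7 FPKM. The groups did not overlap, with B614 just above the sham mice and the other 5 at 60.5 FPKM or more. The log2 fold change was 1.33 (SE 0.25, limma adjusted p = 0.000645). By the median of ratios it was 0.57 (SE 0.27) with an adjusted p of 0.106 in limma, so the call depends on the scaling.

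S100a16, which encodes a widely expressed S100 protein, had sham levels of 5.58, 2.76, 8.44 and 4.58 FPKM in B607, B634, B636 and H249. In AAN the levels ran from 7.75 through a median of 11.4 to 17.0 FPKM. Here the groups overlapped, as 3 of the 6 AAN mice lay below sham mouse B636. On the log2 scale the change was 1.15 (SE 0.33, limma adjusted p = 0.00969), and the call was lost by the median of ratios (0.39), by quantiles (0.45), within length classes (0.62) and without sham mouse B634 (0.87). S100a14, an epithelial member, was low but separate in the groups, at 0.164 ± 0.065 FPKM (SD, n = 4) in sham and 0.863 ± 0.273 FPKM (SD, n = 6) in AAN mice, and its change on the log2 scale was 1.84 (SE 0.29, limma adjusted p = 0.000192), which by quantile normalization was 0.61 (limma adjusted p = 0.0671) and with a pseudocount of 1 was 0.67. S100pbp was at 0.792 ± 0.172 FPKM (SD, n = 4) in sham mice and 1.76 ± 0.266 FPKM (SD, n = 6) in AAN mice without overlap, and its change of 1.07 (SE 0.20, limma adjusted p = 0.000585) just passed the 2-fold limit. S100pbp was not called by the median of ratios (0.37), by quantiles (-0.08), within length classes (0.34), with a pseudocount of 1 (0.62) or without sham mouse B634 (0.92).

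S100g and S100a1, the most abundant members in sham mice, were not called. S100g, the gene of calbindin-D9k on the minus strand at chrX:162961992-162964599, had sham levels of 774.7 FPKM in B607, 1949 in B634, 2024 in B636 and 1250 in H249. Among the AAN mice the levels ran from 768.1 through a median of 969.9 to 1132 FPKM. The groups overlapped only through sham mouse B607, as the other 3 sham mice were above all AAN mice. The log2 fold change was -0.53 (SE 0.27, limma adjusted p = 0.105), and without B607 and B614 it was -0.83 (SE 0.21, limma adjusted p = 0.00597), which is under 2-fold. By the median of ratios S100g was called lower, at -1.30 (SE 0.33, limma adjusted p = 0.00725). S100g made up 64.5% to 78.4% of the summed FPKM of the 23 genes in the sham mice and 26.6% to 51.5% in the AAN mice. S100a11 was above S100g in 3 of the 6 AAN mice and in 0 of the 4 sham mice.

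S100a1 encodes a protein best known from heart and skeletal muscle, where it binds calcium-handling proteins. It was at 160.3, 254.5, 206.9 and 218.5 FPKM in B607, B634, B636 and H249. Levels in AAN went from 178.2 through a median of 228.4 to 254.8 FPKM. The groups lay on top of each other, and the log2 fold change of 0.11 (SE 0.17, limma adjusted p = 0.579) changed sign by the median of ratios, at -0.65 (SE 0.21, limma adjusted p = 0.026), which is under 2-fold. S100b, a marker of glial cells, was near the limit of these libraries, with 0 to 5 fragments in each sham mouse and 2 to 11 in each AAN mouse. S100a3, known from the hair cuticle, was listed at 0 in all 4 sham mice and at 0.0716 to 0.284 FPKM in the AAN mice, and it did not pass the filter.

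S100a1 and S100a13 lie head to head on chromosome 3, with 42 bases between their annotated ends, and this pair was chosen after its values had been seen. The bases between them (RefSeq, GRCm38.p6, chr3:90514393-90514434, plus strand) hold no match to the motifs above.
between S100a1 and S100a13: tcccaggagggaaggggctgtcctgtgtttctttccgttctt
The log2 ratio of S100a13 to S100a1 within a mouse was -3.13, -3.44, -2.96 and -3.25 in sham mice B607, B634, B636 and H249. In AAN mice A483, B614, B630, B639, B642 and B666 it was -1.93, -2.62, -1.91, -1.81, -1.73 and -1.87. The ratio was thus higher in every AAN mouse than in any sham mouse, B614 included, and it is given as a description with no test.

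Along chromosome 3, 9 of the S100 members lie between positions 90511034 and 93564643 (GRCm38), and 7 of the 8 tested there were called higher, with a median log2 fold change of 1.91, against 35.8% and 0.75 over all genes. By the median of ratios 5 of the 8 were called higher, against 18.8%. The block also holds 23 other listed genes, many of them genes of the skin barrier, of which 11 were tested, 4 were called higher and 1 lower, with a median of 0.65. The 4 were Sprr2f, Sprr2g and Sprr1a, which encode small proline-rich proteins of the cornified envelope, and Crct1. Of these, Sprr2f, Sprr2g and Crct1 averaged under 0.1 FPKM in sham mice, so they passed the filter only through the AAN mice and their direction was fixed. Sprr2f was at a mean of 0.0249 FPKM in sham mice and 31.2 FPKM in AAN mice, and Sprr1a at 0.386 and 22.4 FPKM. Smcp, a gene of the sperm mitochondrial capsule, fell from 5.72 to 0.459 FPKM, a log2 fold change of -3.74 (limma, adjusted p = 0.000121). Called and uncalled genes thus stood side by side along the block.

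**Figure D3:**
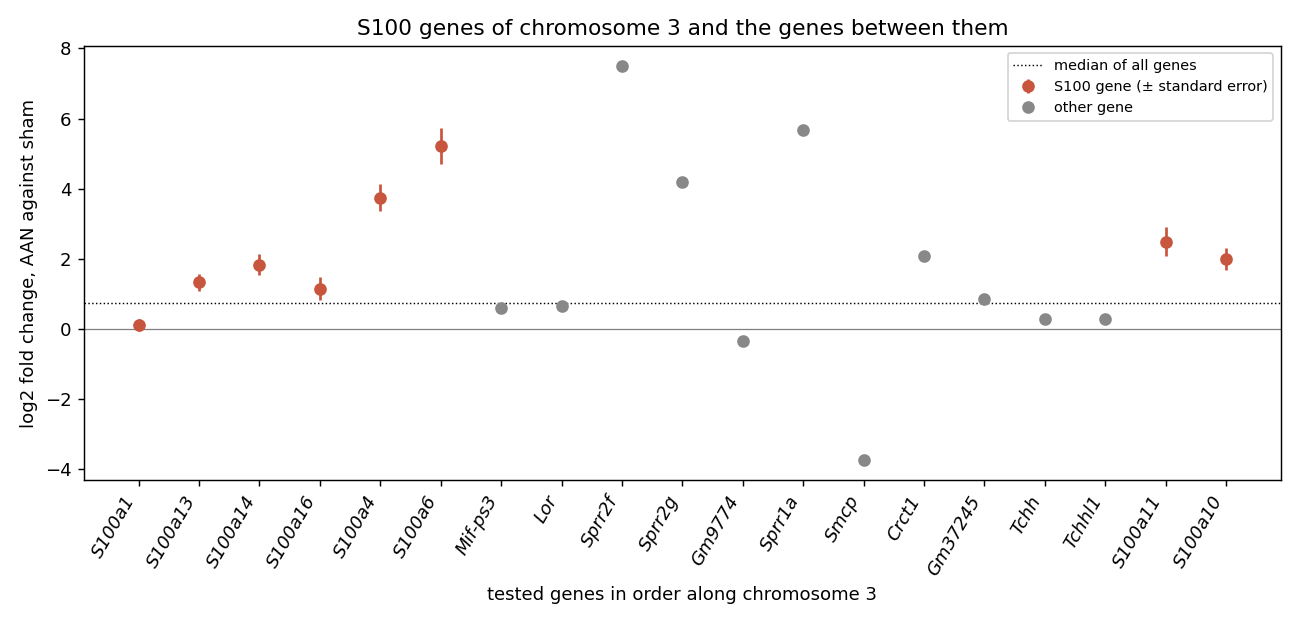
Log2 fold change (AAN against sham, FPKM as deposited) of the tested genes of the chromosome 3 block in their order along the chromosome, evenly spaced, with S100 members in red (± standard error) and other genes in grey, and S100 genes that the symbol rule does not take are left out. The S100 members run from 0.11 (S100a1) to 5.22 (S100a6), against a median of all genes of 0.75.

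Among the annexins, Anxa3, Anxa1 and Anxa2 had the largest changes that could be given as a fold. Unlike most S100 genes, the annexins are dispersed, with Anxa1 at chr19:20373428-20390944, Anxa2 at chr9:69453620-69491795, Anxa3 at chr5:96793339-96845966 and Anxa5 at chr3:36448923-36475894. Anxa1 encodes the glucocorticoid-induced annexin that dampens neutrophil responses through formyl peptide receptors. It was at 1.62 FPKM in sham mouse B607, 1.86 in B634, 2.19 in B636 and 3.38 in H249. The AAN mice ran from 11.5 through a median of 29.4 to 33.6 FPKM. The groups were wide apart, and B614 was the lowest of the AAN mice, with the next at 26.5 FPKM. On the log2 scale the change was 3.50 (SE 0.31, limma adjusted p = 2.05e-06).

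Anxa2 encodes the heavy chain of the complex with S100A10. It was at 7.88, 6.81, 8.95 and 13.6 FPKM in sham mice B607, B634, B636 and H249. In the AAN mice it went from 55.3 through a median of 102.0 to 139.8 FPKM, with no overlap. The sham mean was 9.30 ± 2.98 FPKM (SD, n = 4) and the AAN mean 100.8 ± 31.1 FPKM (SD, n = 6), a rise of 3.41 on the log2 scale (SE 0.27, limma adjusted p = 1.06e-06), and of 2.65 by the median of ratios. Anxa3 had sham levels of 2.14, 1.53, 1.76 and 2.45 FPKM in B607, B634, B636 and H249. Its AAN levels ran from 10.3 through a median of 26.9 to 42.0 FPKM. Every AAN mouse was above every sham mouse, and the log2 fold change was 3.60 (SE 0.32, limma adjusted p = 2.45e-06).

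Anxa5 encodes the phosphatidylserine binder used to stain dying cells, and it was the most abundant annexin in AAN mice. It was at 40.3, 18.4, 23.2 and 35.7 FPKM in sham mice B607, B634, B636 and H249. In AAN the levels ran from 74.9 through a median of 131.4 to 187.9 FPKM. The lowest AAN mouse here was B630, not B614, and the groups did not overlap. The log2 fold change was 2.13 (SE 0.31, limma adjusted p = 0.000104).

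Anxa6, which encodes an annexin with a doubled core that binds late endosomes and the plasma membrane, was at 21.2, 15.2, 17.7 and 25.1 FPKM in B607, B634, B636 and H249. Among the AAN mice the levels ran from 61.5 through a median of 66.9 to 89.7 FPKM, again without overlap. Its log2 fold change of 1.83 (SE 0.18, limma adjusted p = 3.89e-06) was 1.07 by the median of ratios. Anxa4, which encodes an annexin of epithelia, was at 9.31, 7.99, 7.27 and 10.2 FPKM in the same sham mice. Its AAN levels ran from 19.9 through a median of 25.1 to 28.2 FPKM. The groups did not overlap, and the log2 fold change was 1.46 (SE 0.16, limma adjusted p = 1.19e-05) but under 2-fold by the median of ratios (0.70), by quantiles (0.91) and within length classes (0.73).

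Anxa8 and Anxa9 were low in both groups. Anxa8 was listed at 0 in all 4 sham mice and ran from 0.391 through a median of 0.881 to 2.12 FPKM in AAN mice. Taking 3 fragments in each sham library over the longest transcript as the floor, it was at least 11.2-fold higher in AAN mice, given as a description with no test, since it passed the filter only through the AAN mice. Anxa9, which encodes an annexin whose calcium sites have been lost, was at 1.0 ± 0.29 FPKM (SD, n = 4) in sham mice and 3.01 ± 1.32 FPKM (SD, n = 6) in AAN mice, and B614 at 1.28 FPKM lay within the sham range. Its change was 1.42 (SE 0.33, limma adjusted p = 0.00312), and the call was lost by the median of ratios (0.71, limma adjusted p = 0.107), by quantiles (0.35), within length classes (0.84) and with a pseudocount of 1 (0.95).

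The remaining annexins were Anxa7, Anxa11 and Anxa13. Anxa7 encodes synexin, a membrane fusion factor of secretory cells. It was at 40.9, 28.1, 30.1 and 38.7 FPKM in B607, B634, B636 and H249. The AAN mice ran from 41.2 through a median of 57.6 to 65.8 FPKM. The groups only just did not overlap, the change of 0.69 (SE 0.18, limma adjusted p = 0.00569) was under 2-fold and below the median of all genes, and by the median of ratios it was -0.07. With all mice set to the same FPKM total Anxa7 was called higher, at 1.05 (SE 0.31, limma adjusted p = 0.0102).

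Anxa11 encodes the partner of calcyclin and of the penta-EF-hand protein ALG-2. It was at 13.7 FPKM in sham mouse B607 and at 2.55, 2.99 and 5.54 FPKM in B634, B636 and H249. Over the 6 AAN mice it ran from 3.73 through a median of 5.92 to 18.1 FPKM. The highest mouse of each group was one of the pair that stood apart, B607 and B614, and the log2 fold change was 0.34 (SE 0.50, limma adjusted p = 0.568). Without that pair it was 0.53 (SE 0.28, limma adjusted p = 0.123).

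Anxa13, an annexin of intestinal and renal epithelium, was the single member called lower. It was at 4.93, 2.34, 4.38 and 2.59 FPKM in sham mice B607, B634, B636 and H249. In the AAN mice it went from 0.571 through a median of 1.36 to 2.51 FPKM. The groups overlapped through B614, with the other 5 AAN mice below all sham mice. Its log2 fold change was -1.31 (SE 0.37, limma adjusted p = 0.0092) and -2.04 by the median of ratios, and with a pseudocount of 1 or with all mice set to the same FPKM total it was not called. The gene, at chr15:58341471-58389244 on the minus strand, is annotated as a processed transcript in GENCODE release M21.

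**Figure D4:**
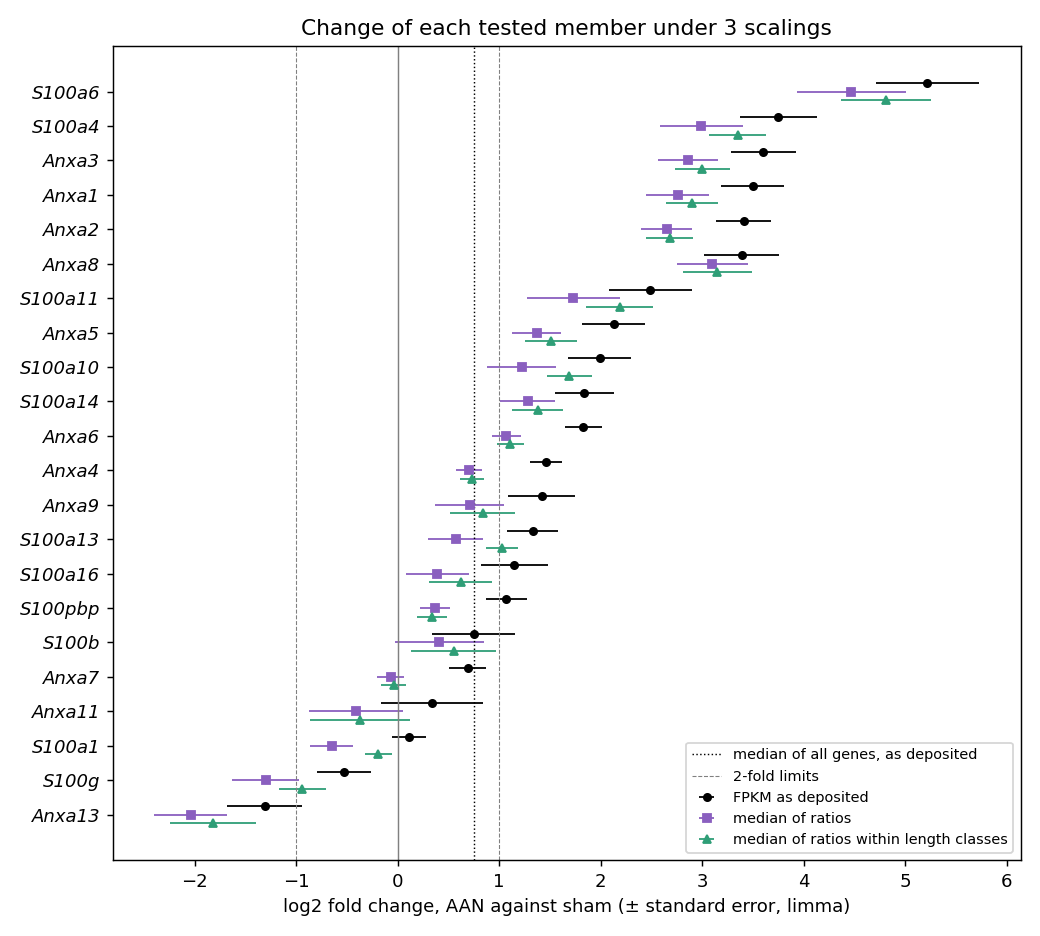
Log2 fold change (AAN against sham, ± standard error in limma) of the 22 tested members with FPKM as deposited, scaled by the median of ratios and scaled so within classes of transcript length, where the dotted line is the median of all genes as deposited and the dashed lines are at 2-fold. S100a6 stays at 4.47 or above under all 3, while S100a1, Anxa7 and Anxa11 change sign.

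Ratios of partner genes within a mouse were compared, since 1 factor for a whole library cancels in them apart from the pseudocount. Scalings that treat genes of a library unequally do not cancel. The log2 ratio of Anxa2 to S100a10 was -1.5, -2.51, -2.08 and -1.64 in sham mice B607, B634, B636 and H249. In the AAN mice A483, B614, B630, B639, B642 and B666 it was -0.26, -0.20, -0.77, -0.97, -0.65 and -0.20. All 6 AAN mice were above all 4 sham mice, and the difference of 1.42 (SE 0.25) had a two-sided exact permutation p of 0.00476, the smallest that 210 splits can give, and 0.0143 adjusted over the 3 ratios. Without B607 and B614 the difference was 1.51 (exact permutation p = 0.0179). By quantile normalization it was 1.25 and within length classes 1.0, both with an exact permutation p of 0.00476.

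The log2 ratio of Anxa1 to S100a11 was -5.95 ± 0.51 (SD, n = 4) in sham mice and -4.93 ± 0.40 (SD, n = 6) in AAN mice, and 5 of 6 AAN mice were above all sham mice. The difference was 1.01 (SE 0.29, exact permutation p = 0.0143, adjusted over the 3 ratios 0.0143). With a pseudocount of 1 it was 0.58 (exact permutation p = 0.0762), and among the 8 mice whose tags begin with B it was 1.07 (exact permutation p = 0.0536). Quantile normalization left a difference of 0.33 (exact permutation p = 0.167), and scaling within length classes 0.70 (exact permutation p = 0.019). The log2 ratio of Anxa11 to S100a6 went the other way, from 0.83 ± 1.61 (SD, n = 4) to -4.05 ± 1.82 (SD, n = 6), with 5 of 6 AAN mice below all sham mice. The difference was -4.88 (SE 1.13, exact permutation p = 0.00952, adjusted over the 3 ratios 0.0143), and the AAN mouse that overlapped was B614, at -0.41. The same difference was found without B607 and B614 together (-4.88, exact permutation p = 0.0179). Without B607 alone the difference was -4.15 (exact permutation p = 0.0238), and without B614 alone it was -5.61 (exact permutation p = 0.00794). By quantile normalization it was -5.01 and within length classes -5.18. Anxa2 was thus higher relative to S100a10 in AAN under every setting run and Anxa11 lower relative to S100a6. The difference for Anxa1 and S100a11 depended on the scaling and the pseudocount. With 1 mouse left out it ran from 0.82 to 1.19. Among the mice with B tags it was about as large, and only the exact permutation p rose above 0.05.

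**Figure D5:**
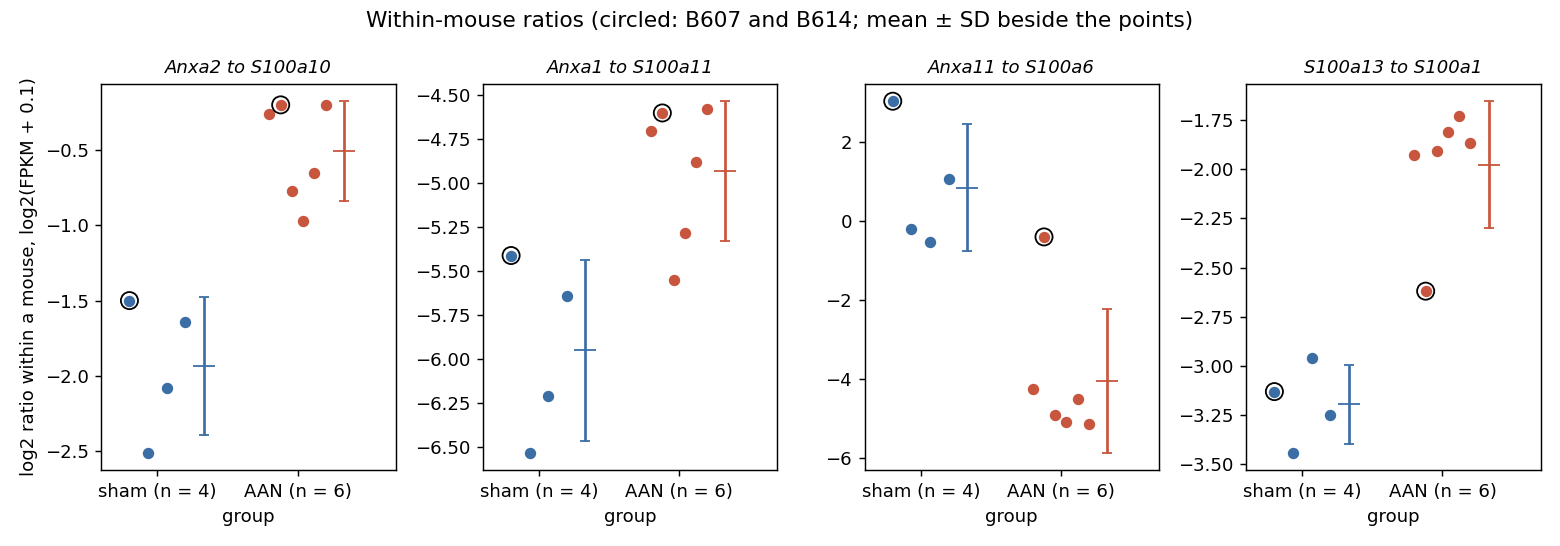
Log2 ratio of each partner pair within each mouse, on log2(FPKM + 0.1), with sham mice in blue, AAN mice in red, B607 and B614 circled, and the mean ± SD beside the points. Anxa2 to S100a10 lies between -2.51 and -1.5 in sham mice and between -0.97 and -0.20 in AAN mice, and S100a13 to S100a1, drawn without a test, is also separate.

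Genes of a list of receptors for S100 proteins and annexins moved in both directions, and which members they bind in this tissue was not tested. Of 6 receptor genes, 4 were called higher and 1 lower, with a median log2 fold change of 2.21, against 35.8% and 3.43% of all genes and an all-gene median of 0.75. Fpr2, a formyl peptide receptor that binds annexin A1, rose from 0.114 to 3.13 FPKM (log2 fold change 3.83, SE 0.36), and Fpr1, its paralogue, from 0.0227 to 1.08 FPKM, though Fpr1 averaged under 0.1 FPKM in sham mice and so passed the filter only through the AAN mice. Tlr4 rose from 0.106 to 1.16 FPKM and Ager, the receptor for advanced glycation end products that several S100 proteins bind, from 0.199 to 1.09 FPKM. Cd36, a scavenger receptor also active in fatty acid uptake, fell from 19.4 to 4.09 FPKM (-2.14, SE 0.40, limma adjusted p = 0.00074).

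In the plasminogen system that annexin A2 and S100A10 serve, 5 of 6 tested genes of a list of 7 were called higher and 1 lower, with a median of 2.10, against the same 35.8%, 3.43% and 0.75 over all genes. Plau, the gene of urokinase, rose from a sham mean of 64.4 ± 23.3 FPKM (SD, n = 4) to an AAN mean of 297.1 ± 77.8 FPKM (SD, n = 6), and Plat, the gene of tissue plasminogen activator, from 23.4 to 94.4 FPKM. Serpine2, which encodes an inhibitor of these activators, rose from 1.48 to 14.9 FPKM. Serpinf2, which encodes the inhibitor of plasmin, fell from 79.0 to 14.7 FPKM (log2 fold change -2.46, SE 0.26). Plg itself did not pass the filter.

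Of 10 genes of membrane repair, 8 were called higher and 0 lower, with a median of 1.49 (2 of them, Ahnak2 and Trim72, passed the filter only through the AAN mice), and by the median of ratios 4 were called higher. Over all genes 35.8% were called higher, with a median of 0.75, and 18.8% by the median of ratios. Myof, which encodes the dysferlin relative myoferlin, rose from 1.77 to 23.7 FPKM. The calpain genes Capn1 and Capn2 rose from 7.84 to 26.7 and from 8.27 to 22.5 FPKM, and Pdcd6ip, the gene of the ESCRT adaptor ALIX, from 10.3 to 20.8 FPKM, although only Capn1 and Myof of these 4 kept the call by the median of ratios. Of 10 other EF-hand genes, 9 were listed and tested, and 2 were called higher and 1 lower, with a median of 0.49. Over all genes the shares were 35.8% and 3.43% and the median was 0.75. Efhd2, a calcium sensor of immune cells, rose from 10.8 to 100.4 FPKM and Calm2, a calmodulin gene, from 49.6 to 121.1 FPKM (a log2 fold change of 1.28, but 0.52 and not called by the median of ratios), while Pvalb, the parvalbumin gene of the distal convoluted tubule, fell from 23.6 to 1.98 FPKM.

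Markers of several other cell types were called higher in AAN as well. All 8 of 8 leukocyte, macrophage, T cell, fibroblast and injured tubule markers in each list were called higher, and by the median of ratios all but 1, a leukocyte marker, against 35.8% and 18.8% of all genes. Of these, Lum, Postn and Havcr1 averaged under 0.1 FPKM in sham mice and passed the filter only through the AAN mice. The macrophage markers summed to 38.3 to 61.6 FPKM in sham mice and 630.3 to 2167 FPKM in AAN mice, and C1qa was the most abundant. The leukocyte list summed to 20.3 to 35.9 and 242.0 to 813.0 FPKM, led by Tyrobp, and the T cell list to 1.68 to 6.46 and 118.4 to 346.0 FPKM, led by Trbc2. The fibroblast list summed to 16.2 to 22.3 and 116.5 to 263.7 FPKM, led by Col1a1. The injured tubule list, led by Spp1, summed to 146.2 to 241.7 and 1423 to 3632 FPKM. B614 had the lowest AAN sum in all 5 of these lists. Among the 22 tested members it was the lowest AAN mouse for 13, and it was the highest for Anxa11, Anxa13 and S100pbp. Of the neutrophil list, 5 of 8 were listed and 4 tested, and 2 were called higher, of which Cxcr2 passed the filter only through the AAN mice. Its sums of 0.341 to 0.599 in sham and 1.99 to 8.24 FPKM in AAN mice, led by Csf3r, were low, with Ly6g at 0 in all sham mice.

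Of the markers that check the labelled tissue, those of the proximal tubule summed to 1944 to 4053 FPKM in sham mice. Of these 8, 5 were called lower in AAN (Slc34a1, the most abundant, Slc22a6, Slc22a8, Lrp2 and Cubn) and 0 higher, and by the median of ratios 7 were called lower, against 3.43% and 10.7% of all genes. Their sum was 565.2 to 916.4 FPKM in 5 AAN mice and 2112 FPKM in B614. Of 8 distal and collecting duct markers none was called in either direction, their sums being 804.4 to 2119 FPKM in sham and 416.8 to 2818 FPKM in AAN mice, with Umod the most abundant and B614 the highest, but by the median of ratios 3 (Aqp2, Aqp3 and Umod) were called lower. Of 6 podocyte markers 2 were called higher and 0 by the median of ratios, against 35.8% and 18.8% of all genes. Podxl was the most abundant of the 6, and their sums were 44.3 to 86.0 FPKM in sham and 50.4 to 131.1 FPKM in AAN mice. None of 6 endothelial markers was called (sums of 28.3 to 49.0 and 43.3 to 62.5 FPKM, led by Cdh5), and by the median of ratios 1, Kdr, was called lower. Of the urothelial, adipocyte and Schwann cell lists 3, 1 and 4 markers were tested and 0, 1 and 2 called higher, against 35.8% of all genes. Sox10, a called Schwann cell marker, passed the filter only through the AAN mice. No sum of these lists exceeded 4.35 FPKM in any mouse. The most abundant genes of these lists were Upk1a, Pparg and Mbp. The part that changed numbers of leukocytes, fibroblasts or injured tubule cells have in the levels of the S100 and annexin genes was not tested.

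Some members share their locus with other annotated genes, and whether strand was used in counting is not given in the sources used here. S100b overlaps Dip2a, S100g overlaps Ctps2, Anxa9 overlaps Mindy1 and 6330562C20Rik, Anxa8 overlaps A630023A22Rik, Anxa3 overlaps Gm42603, Anxa4 overlaps Gm44036, and S100a3 and S100a4 both overlap Gm42674, all of them listed. Their reads cannot be told apart where the annotations overlap without strand. S100a11, S100a6, S100a10 and S100a13 overlap no other listed gene.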

How the data were processed

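Per the labels, kidney cortex RNA of 10 WT mice (4 sham, 6 AAN) was sequenced. The authors aligned reads with Hisat2 2.0.4 to GRCm38, and the deposited tables hold FPKM from Stringtie 1.3.0. The study's edgeR test needs counts, so limma 3.58.1 in R 4.3.3 (trend, robust) was run (log2 scale, FPKM + 0.1) on those 17129 genes that averaged 0.1 FPKM or more, with p-values adjusted over all of them. Fold changes on this scale understate those of low genes. Depth was recovered from values under 0.3 FPKM of genes with 1 transcript in GENCODE M21, of which 94.5% to 96.8% were whole fragments (within 0.05). Within-mouse ratios were tested by exact permutation, over 210 splits with all 10 mice. With mice left out there were fewer splits, so the smallest p possible was larger and these p-values are not comparable across settings. Nothing in the sources used here says that the mice were processed in batches. The members and the lists of receptors, plasminogen system, membrane repair, EF-hand genes and cell markers were chosen with earlier results of these data known, and 1 gene of the plasminogen system is not reported here.

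All members were accounted for. For members that averaged 5 FPKM or more in their higher group or were called lower, each sham value and the lowest, median and highest AAN values are given. In each list at most 4 called genes of highest mean and any called lower are named. Alternatives were other pseudocounts (1 and 0.01), filters, scalings (median of ratios, quantile, same total), limma without trend, each mouse left out, only mice with B tags and no fold limit. Scaling within length classes, leaving out B607 and B614 together and the ratios under each scaling were chosen after seeing the data. The test was checked on simulated data. Promoters were RefSeq windows on GRCm38.p6. Python 3.11.15 with scipy 1.17.1 was used.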

Additional observations from a re-analysis of the deposited data

Results flagged for a closer look

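The gap of the lowest or highest mouse to the next was compared with the range of its group for 52 groups of values. Of these gaps, 13 passed Dixon's limit, where independent values would give about 1 in 20, or 2.6. The values are not independent, as the same libraries recur in every gene and the ratios repeat genes already counted. The sham values of Anxa8 and S100a3, all at 0, could not pass. The 2 counts are thus no test against chance. Of the 13 gaps, 7 were in B614 and 3 in B607. B614 lay below the other AAN mice for Anxa1 (11.5 FPKM, the others 26.5 to 33.6), S100a4 (17.6, the others 46.3 to 67.4), S100a6 (24.0, the others 118.3 to 225.9), S100a11 (281.3, the others 798.1 to 1291) and S100a13 (28.9, the others 60.5 to 72.7). It lay above them for Anxa11 (18.1 FPKM, the others 3.73 to 6.35) and for the log2 ratio of Anxa11 to S100a6 (-0.41, the others -5.13 to -4.25). B607 lay below the other sham mice for S100a4 (1.71 FPKM, the others 3.78 to 4.30), S100a10 (22.5, the others 38.2 to 42.5) and S100a11 (73.2, the others 169.3 to 181.1). The remaining 3 were single low genes. S100a3 was at 0.284 FPKM in AAN mouse B666 and at 0.0716 to 0.0996 in the others. S100b was at 0.450 FPKM in AAN mouse A483 (11 fragments) and at 0.0854 to 0.174 in the others. S100pbp was at 0.534 FPKM in sham mouse B634 and at 0.859 to 0.890 in the others. Of the members flagged in B607 or B614, S100a4, S100a6, S100a10, S100a11, S100a13 and Anxa1 were called higher with and without both mice.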

How the results depend on the processing

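Of 459 values of a member under an alternative, 428 kept their direction and their side of the threshold. Of the 15 members called higher apart from Anxa8, which passed the filter only through the AAN mice, 9 kept the call under every alternative that gave a value: Anxa1, Anxa2, Anxa3, Anxa5, Anxa6, S100a4, S100a6, S100a10 and S100a11. The direction turned for Anxa11 (-0.41 by the median of ratios, -0.40 by quantiles, -0.37 within length classes), Anxa7 (-0.07 by the median of ratios, -0.04 within length classes), S100a1 (-0.65, -0.19, and -0.01 without B607) and S100pbp (-0.08 by quantiles), and the cause was not tested. Members called lower were 0 with a pseudocount of 1, 2 by the median of ratios and 0 with the same FPKM total. Over all genes, 6126 higher and 588 lower became 3193 and 1810 by the median of ratios, 2487 and 2085 by quantiles, 3248 and 1640 within length classes, and 9482 and 1027 with no fold limit. The higher count was 2909 with a pseudocount of 1 and 4025 at a mean of at least 1 FPKM, where fewer genes are tested, and the lower count was 330 with the same FPKM total. The difference in the ratio of Anxa1 to S100a11 was 0.58 with a pseudocount of 1 and 0.33 by quantiles. Among mice with B tags it was 1.07, where only the exact permutation p, at 0.0536, rose above 0.05. Receptors called lower were 2 by the median of ratios, membrane repair genes called higher 4 by the median of ratios and 4 by quantiles, other EF-hand genes called higher 1 by the median of ratios, and genes between the S100 genes of chromosome 3 called lower 2 by the median of ratios. Anxa8, S100a14 and S100b have no value at a mean of at least 1 FPKM. No paired analysis was possible because no replicate numbers are in the labels, where tags name single mice, and different mice cannot be paired by the order in which they are listed. The limma p-values set the difference between the groups against the spread between these mice, moderated over all genes. The exact permutation p-values compare the difference with that of other splits of the mice. S100a3 and S100b rest on a few fragments.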
